A study of Mus musculus with 10 samples.

Results

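The genes described here encode respiratory complexes II, III, IV and V and cytochrome c, the mobile electron carrier, in mouse liver. They were chosen by gene symbol alone: the Sdh, Uqcr, Cyc1, Cycs, Cox4 to Cox8 and Atp5 symbols together with mt-Cytb, mt-Co1, mt-Co2, mt-Co3, mt-Atp6 and mt-Atp8, with pseudogene symbols ending in -ps left out. The choice took 55 of the 47729 genes in the deposited table: 4 of complex II, 10 of complex III, 1 for cytochrome c, 21 of complex IV and 19 of complex V. Of these, 49 are nuclear genes and 6 lie on the mitochondrial genome. A few fit the symbols but not the name: Atp5s (Dmac2l) encodes coupling factor B rather than a core subunit, Atp5sl (Dmac2) encodes an assembly factor of complex I, and Cox7a2l encodes a factor that joins complexes III and IV into supercomplexes.

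Livers of female mice with a full-body deletion of Etnppl (KO, 5 samples) were set against livers of wild-type females (WT, 5 samples). Etnppl encodes the phospho-lyase that breaks down phosphoethanolamine. Mice of both genotypes had 8 weeks of chow and then 10 weeks of a high-fat diet with 45% of kcal from fat, so there was no group on chow alone, and the labels state neither strain nor age. Poly(A) RNA was sequenced in paired ends, 1 library a sample. Levels are FPKM, fragments scaled to transcript length and to the library total. The labels number the samples but do not say that each is a separate animal, so a p-value measures the spread between these samples.

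The respiratory chain sits in the inner mitochondrial membrane. Complex II passes electrons from succinate to ubiquinone, complex III passes them on to cytochrome c, and complex IV hands them to oxygen. Complexes III and IV pump protons, and complex V, the ATP synthase, uses their return flow to make ATP. Complex II is built only from nuclear genes, while the cores of complexes III and IV and the proton channel of complex V also need subunits made inside the mitochondrion. Liver is rich in mitochondria, which serve fatty acid oxidation, the urea cycle and gluconeogenesis.

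Etnppl was at 27.6, 56.5, 33.0, 36.7 and 30.6 FPKM in WT replicates 1 to 5 and at 8.79, 7.75, 10.2, 7.36 and 9.35 FPKM in KO replicates 1 to 5, with every KO library below every WT library (log2 fold change -1.99, limma adjusted p = 0.000387). The steps between low FPKM values placed the depth at 21100000 to 27900000 fragments a library. Hepatocyte markers summed to 58597 to 70219.8 FPKM in WT and 66340.4 to 77467 FPKM in KO. Of these 8 markers 7 had log2 fold changes above 0 (median 0.20), beside 34.9% of all genes tested. An unadjusted p under 0.05 was found for 3 (11.8% of all genes) and parted ranges for 2 (2.79%), and 0 passed an adjusted p of 0.05. Their part in FPKM scaled to the library total was not tested. Skeletal muscle markers summed to at most 2.77 FPKM and heart markers to at most 2.40 FPKM in any library, with Acta1, Ckm, Myh1, Myh6 and Nppa at 0 in all 10. The 5 brown fat markers summed to 9.39 to 12.9 FPKM in WT and 8.70 to 10.43 FPKM in KO. Of these brown fat markers, Ucp1 was at 0 in every library and 2 were tested, Pparg (8.47 ± 1.41 and 5.63 ± 1.13 FPKM, limma adjusted p = 0.143) and Elovl3 (2.45 ± 1.89 and 3.98 ± 1.28 FPKM, limma adjusted p = 0.521), both of which hepatocytes can express. Pancreas acinar markers summed to 109 FPKM in KO replicate 3 and to at most 3.19 FPKM elsewhere, and the part of these markers in the values below was not tested.

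Transcripts of complexes II to V differed little between KO and WT livers. Genes entered the test when they averaged 0.5 FPKM or more across all libraries, and 46 of the 55 did, 44 nuclear and 2 mitochondrial. None of the 46 passed an adjusted p of 0.05, against 8 of 12395 genes overall (0.0645%). None had an unadjusted p under 0.05, which 1458 of all genes tested had (11.8%), and in none did the KO and WT ranges part, as they did for 346 genes overall (2.79%). The lowest adjusted p among the 46 was 0.493 (limma), for Atp5s. In bulk liver, fewer cells of a type and less RNA per cell cannot be told apart.

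The differences that these libraries do not exclude are given by the intervals. For 41 of the 46 genes the 95% confidence interval of the fold change lay within 1.2-fold in either direction, a bound met by 25.8% of all genes tested. Intervals narrow as levels rise, and among the 1385 genes averaging 50 FPKM or more the share was 54.3%, beside 40 of the 41 chosen genes at that level. The exceptions were Cycs, mt-Cytb, Cox7a1, Cox6b2 and Atp5s, each with a negative log2 fold change. The log2 fold change was above 0 for 26 of the 46 and below 0 for 20, while 34.9% of all genes tested were above 0. Its median was 0.004 over the 46 and -0.05 over all genes. Both shares varied with the scaling, from 56.5% of the 46 and 34.9% of all genes in the main fit. With median-of-ratios scaling they were 34 of the 46 (73.9%) and 48.9%, at an all-gene median of -0.004. With quantile normalization they were 26 of the 46 (56.5%) and 48.3%, at an all-gene median of -0.006. With rescaling without mitochondrial transcripts they were 19 of the 46 (41.3%) and 31.6%. In the main fit the log2 fold change of the 46 ran from -0.21 for Atp5s to 0.09 for Sdhb.

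**Figure D1:**
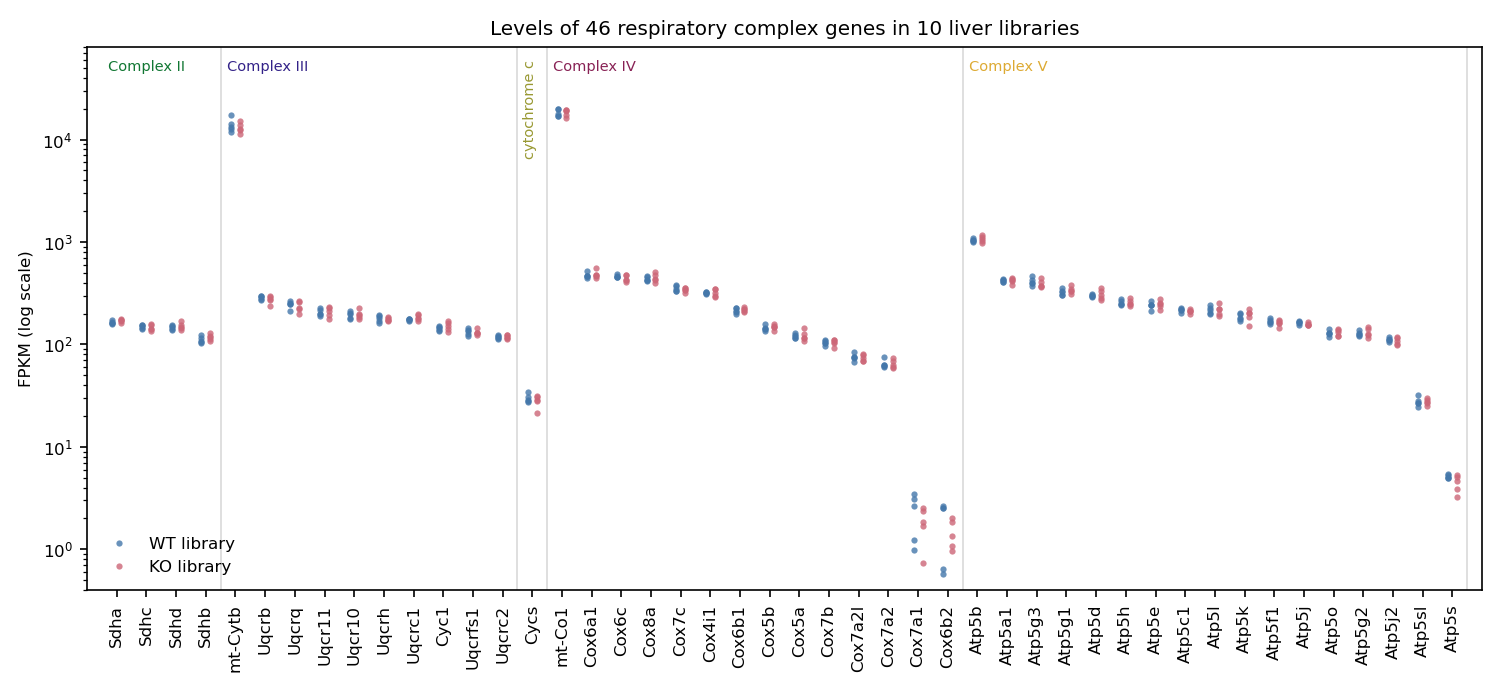
FPKM of each tested gene of complexes II to V and cytochrome c (log axis) in 5 WT (blue) and 5 KO (red) libraries, 1 point a library, ordered by level within each complex. The WT and KO points overlap for all 46 genes, from mt-Co1 at 16223 FPKM or more down to Cox6b2 and Cox7a1 near 1 FPKM.

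**Figure D2:**
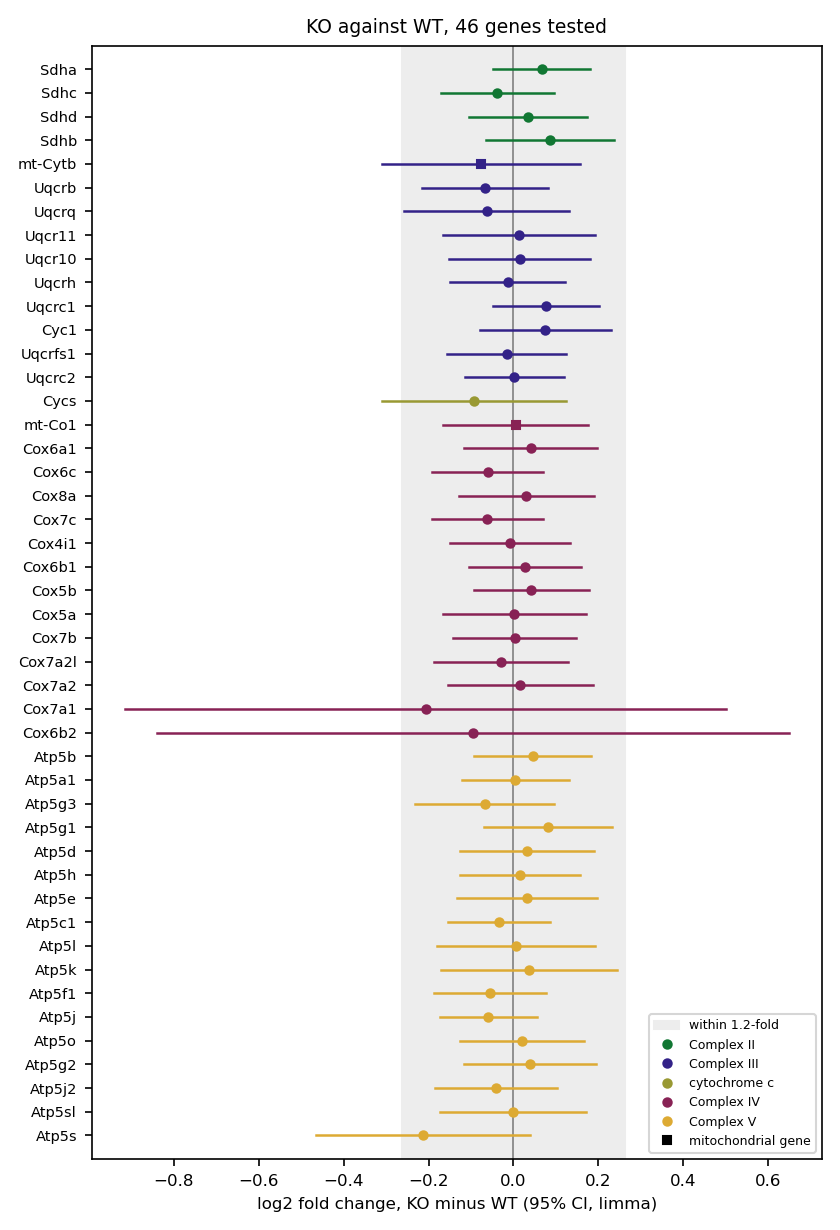
Log2 fold change of KO minus WT for the 46 tested genes with the 95% confidence interval from limma, coloured by complex, with squares for mitochondrial genes. The grey band marks 1.2-fold either way and holds the whole interval of 41 genes.

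Complex II, the only one here that also works in the citric acid cycle, has 4 subunits, and all 4 were tested. Sdha, the flavoprotein that oxidises succinate, read 162, 157, 173, 164 and 164 FPKM in WT replicates 1 to 5 and 174, 172, 170.2, 163 and 178 FPKM in KO replicates 1 to 5. KO replicates 2, 3 and 4 lay within the WT range, and the means, 164 ± 5.85 and 171 ± 5.78 FPKM (SD, n = 5 each), differed by a log2 fold change of 0.07 (95% CI -0.05 to 0.18, limma adjusted p = 0.664). Sdhb, the iron-sulfur subunit, was at 102, 125, 116, 105 and 108 FPKM in WT and at 128, 118, 113, 108 and 121 FPKM in KO. Its log2 fold change of 0.09 was the highest of all 46 (95% CI -0.07 to 0.24, limma adjusted p = 0.677), and the groups overlapped from 108 to 125 FPKM. The membrane anchors that hold the ubiquinone site, Sdhc and Sdhd, were at 149.8 ± 6.27 and 147 ± 6.25 FPKM in WT and at 146 ± 9.97 and 151 ± 11.9 FPKM in KO, with log2 fold changes of opposite sign, -0.04 and 0.03. The 4 subunits are needed in equal number in the complex, and the ratio of the highest to the lowest of them within a WT library averaged 1.48.

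Complex III had 9 nuclear genes and mt-Cytb. The nuclear genes lay between a mean of 119 FPKM in WT for Uqcrc2, a core protein, and 287 FPKM for Uqcrb, a small subunit beside cytochrome b, and the ratio of highest to lowest averaged 2.41 in WT libraries and 2.35 in KO libraries. Uqcrc1, the other core protein, had the lowest p of the complex: its WT values of 176, 177, 179, 169.9 and 172 FPKM were closely spaced, and its KO values of 182, 196, 169, 179 and 196 FPKM were wider. Both the lowest and the highest Uqcrc1 values were in KO libraries, and the log2 fold change was 0.08 (95% CI -0.05 to 0.20, limma adjusted p = 0.641). Cyc1, cytochrome c1, which hands electrons to cytochrome c, averaged 144 ± 6.17 FPKM in WT libraries and 152 ± 14.7 in KO libraries, a log2 fold change of 0.08 as well (limma adjusted p = 0.724). Uqcrb had a mean of 287 ± 12.2 FPKM in WT against 274 ± 23.1 in KO, a log2 fold change of -0.07 (limma adjusted p = 0.742). Uqcrfs1, the Rieske iron-sulfur protein, had means of 133 and 131 FPKM. The median log2 fold change of the 9 nuclear genes was 0.002, with 5 above 0 and 4 below.

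The mitochondrial gene mt-Cytb encodes cytochrome b, which holds both ubiquinone sites of complex III. It was at 13300.1, 17520.5, 14139.6, 11882 and 12584 FPKM in WT replicates 1 to 5 and at 15205, 11353, 13766, 12722 and 12497 FPKM in KO replicates 1 to 5. The highest library was WT replicate 2 and the lowest KO replicate 2, and the groups overlapped over most of their range (log2 fold change -0.08, 95% CI -0.31 to 0.16, limma adjusted p = 0.820). Per length, mt-Cytb was 76.5 ± 9.34 times the median nuclear gene of complex III in WT and 71.6 ± 10.96 times in KO (SD, n = 5 each). How well poly(A) selection captured the short-tailed mitochondrial transcripts was not tested, so the ratio is that of captured RNA.

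Cytochrome c itself was far less abundant in RNA than its partners. Cycs, the somatic cytochrome c gene, was at 27.6, 28.6, 30.9, 27.8 and 34.2 FPKM in WT and at 28.5, 21.6, 28.1, 30.8 and 31.3 FPKM in KO. KO replicate 2 stood below the other 9 libraries, which ran from 27.6 to 34.2 FPKM, and the log2 fold change was -0.09 (95% CI -0.31 to 0.12, limma adjusted p = 0.752). The longest annotated Cycs transcript has 3123 bases, of which a short part is coding. FPKM is scaled to transcript length, but the length used for Cycs is not given, and its part in the low value was not tested.

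Complex IV has its catalytic core from the mitochondrial genome and a ring of nuclear subunits, several of which exist as a widely expressed form and an alternative form known from muscle, heart, lung or testis. In these livers the widely expressed form made up nearly all of the RNA in both genotypes. Cox4i1, an early partner of mt-Co1 in assembly, averaged 319.5 ± 7.39 FPKM in WT and 319 ± 27.9 FPKM in KO, while the lung form Cox4i2 did not exceed 0.37 FPKM. Cox6a1 was at 469.7 ± 29.8 and 484 ± 44.0 FPKM against at most 0.37 FPKM for the muscle form Cox6a2. Cox8a was at 438 ± 22.4 and 448 ± 44.3 FPKM, whereas Cox8b was listed at 0.42 FPKM in WT replicate 2 and at 0 in the other 9 libraries, and Cox8c at 0 in all 10. Cox7b was at 105 ± 5.72 and 105 ± 7.78 FPKM beside Cox7b2 at 0 throughout. Cox4i2, Cox6a2, Cox7b2, Cox8b and Cox8c are the 5 nuclear genes that were too low to test.

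For a pair of complex IV subunits the alternative form was measurable. Cox7a1, the heart and muscle form, was at 0.98, 2.67, 3.48, 1.23 and 3.08 FPKM in WT and at 2.56, 2.39, 1.86, 0.73 and 1.70 FPKM in KO. The WT libraries alone spanned almost the whole range, and the interval of the log2 fold change of -0.21 ran from -0.92 to 0.50 (limma adjusted p = 0.842). Its partner Cox7a2 was at 64.4 ± 5.88 and 65.1 ± 5.98 FPKM, and made up 96.6 ± 1.60% of the summed pair in WT and 97.2 ± 1.25% in KO. Cox6b2, known from testis, was at 2.51, 2.67, 0.64, 0.58 and 2.52 FPKM in WT and at 1.36, 1.08, 1.85, 0.97 and 2.01 FPKM in KO. The WT libraries thus fell on either side of the KO libraries, and Cox6b1, which links the monomers of the complex IV dimer, made up 99.2 ± 0.490% and 99.3 ± 0.202% of that pair. As ratios of KO to WT, the intervals ran from 0.530 to 1.42 for Cox7a1 and from 0.559 to 1.57 for Cox6b2. Changes inside those bounds are not excluded.

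**Figure D3:**
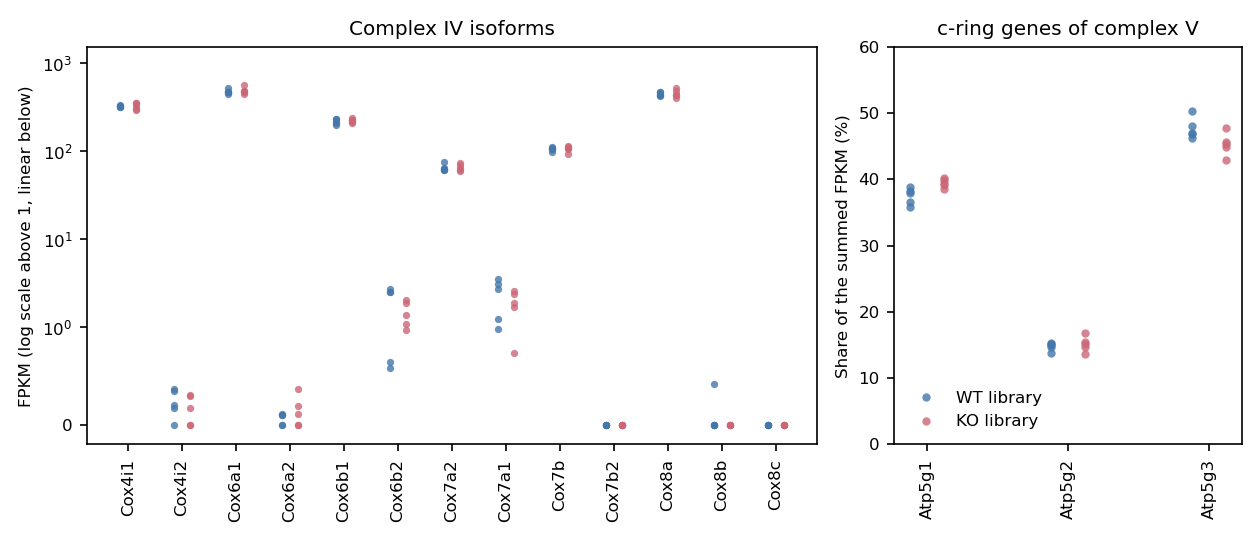
Left, FPKM of complex IV genes with alternative forms (log axis above 1, linear below) in 5 WT (blue) and 5 KO (red) libraries. Right, the share of each of Atp5g1, Atp5g2 and Atp5g3 in their summed FPKM. Cox4i1, Cox6a1, Cox6b1, Cox7a2, Cox7b and Cox8a lie above 50 FPKM and their alternative forms below 5 FPKM in every library.

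The promoters of these genes are known targets of NRF1, GABP (an ETS factor), the oestrogen-related receptors and YY1 as a class. The 250 bases before the RefSeq start site are shown for Cycs, Cox6b1 and Cox6b2, a gene for the carrier and a pair of forms at high and low level, so that the letters searched can be seen. They are from GRCm38.p6, on the minus strand, 5′ to 3′ toward the gene: chr6:50566570-50566819 for Cycs, chr7:30626115-30626364 for Cox6b1 and chr7:4753095-4753344 for Cox6b2. Capitals mark GCATGCG in Cycs, which matches on both strands with overlap, and the reverse complement of CCGGAAG in Cox6b1, and Cox6b2 has none of the 4 cores.
Cycs: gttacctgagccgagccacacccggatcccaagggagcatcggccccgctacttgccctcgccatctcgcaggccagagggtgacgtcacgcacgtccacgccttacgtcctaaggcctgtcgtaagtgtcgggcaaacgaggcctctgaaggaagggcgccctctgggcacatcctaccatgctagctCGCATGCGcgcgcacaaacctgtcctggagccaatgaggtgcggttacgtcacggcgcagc
Cox6b1: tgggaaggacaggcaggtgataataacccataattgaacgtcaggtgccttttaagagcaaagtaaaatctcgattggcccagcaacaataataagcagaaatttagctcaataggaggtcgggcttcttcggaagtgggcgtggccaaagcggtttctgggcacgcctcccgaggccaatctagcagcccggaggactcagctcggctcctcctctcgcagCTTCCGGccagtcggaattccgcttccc
Cox6b2: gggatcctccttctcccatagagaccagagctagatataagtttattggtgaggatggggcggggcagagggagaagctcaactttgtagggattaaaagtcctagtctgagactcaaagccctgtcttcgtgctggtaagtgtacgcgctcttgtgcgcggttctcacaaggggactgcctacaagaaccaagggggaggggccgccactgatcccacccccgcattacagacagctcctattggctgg

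RefSeq windows from 250 bases before to 50 after the start were matched for 38 of the 49 nuclear genes. Each was searched on both strands for GCATGCG (NRF1), CCGGAAG (ETS and GABP), AAGGTCA (oestrogen-related receptor) and AAGATGG (YY1). Among the 34 windows of the 31 matched genes with at least 50 FPKM, GCATGCG was in 8 (23.5%), CCGGAAG in 12 (35.3%), AAGGTCA in 5 (14.7%) and AAGATGG in 4 (11.8%). Over the windows of all genes tested the shares were 6.12%, 17.4%, 3.5% and 7.17%, and over all 32851 windows they were 3.58%, 8.86%, 4.72% and 6.34%. Of the 34 windows of genes with at least 50 FPKM, 18 held at least 1 of the 4 cores. The 5 matched genes below 5 FPKM, Cox6b2, Cox7a1, Cox7b2, Cox8b and Atp5s, held none of the 4. Cox7a2 and Cox7b, the higher partners of Cox7a1 and Cox7b2, held none either. The median number of CpG was 19 in the windows of the higher group and 10 in those of the lower group, beside 20 over the windows of genes tested. These are counts of letters, with no test, and say nothing of binding in these livers.

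The remaining nuclear genes of complex IV followed the same pattern. Cox7c and Cox6c, small subunits that span the membrane, had the lowest p of the complex, with means of 355 and 461 FPKM in WT and 339 and 443 FPKM in KO and log2 fold changes of -0.06 each (limma adjusted p = 0.730 and 0.737). Cox5a and Cox5b, subunits on the matrix side, were at 121 and 144 FPKM in WT and 122 and 148 FPKM in KO. Cox7a2l was at 75.6 ± 6.43 and 74.0 ± 5.41 FPKM. Within a WT library the most abundant nuclear subunit with at least 50 FPKM exceeded the least abundant by a factor of 7.42 on average, although the complex holds the subunits in equal number. The 13 nuclear genes tested had a median log2 fold change of 0.002, with 7 above 0 and 6 below.

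The catalytic core of complex IV is mitochondrial. mt-Co1, which holds the haem and copper centre where oxygen is reduced, was the most abundant of the 46 genes, at 16950.1, 20072, 19817, 16919 and 17818 FPKM in WT replicates 1 to 5 and 19523, 16223, 19185, 17475 and 19504 FPKM in KO replicates 1 to 5. The lowest value was in KO replicate 2 and the highest in WT replicate 2, the same libraries as for mt-Cytb. The log2 fold change was 0.01 (95% CI -0.17 to 0.18, limma adjusted p = 0.986). mt-Co1 was 85.4 ± 2.54 times the median nuclear gene of complex IV in WT and 84.2 ± 6.41 times in KO (SD, n = 5 each). As for mt-Cytb, the ratio is that of captured RNA. Of the 1545 bases of mt-Co1, 483 align with 1 mismatch to a chromosome 1 copy described below, Gm29216. How fragments of that part were divided between gene and copy was not tested.

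The other 4 mitochondrial genes had almost no FPKM of their own. mt-Co2, mt-Atp6 and mt-Atp8 were listed at 0 in all 10 libraries, and mt-Co3 at 0 to 0.30 FPKM. They are neighbours of each other on the mitochondrial genome, at M:7013-9390 of GRCm38, and that segment has a nuclear copy on the minus strand of chromosome 1, annotated as unprocessed pseudogenes. The copy of mt-Co2, Gm28661, matched it at all of 681 aligned bases (chr1:24614885-24615565), that of mt-Atp6, Gm10925, at all of 678 (chr1:24613974-24614651) and that of mt-Co3, Gm28437, at all of 783 (chr1:24613189-24613971). A copy of the mt-Co1 end, Gm29216 (chr1:24615706-24616197), matched 483 of the 1545 bases of mt-Co1 with 1 mismatch. Diverged copies on chromosome 2, Gm13341 of mt-Co2 and Gm13340 of mt-Co1, were 95.9% and 97.6% identical. mt-Atp8 has 204 bases, fewer than the fitted mean fragment length of 240 to 255 bases, and no separately annotated copy was found for it. The search kept only alignments of at least 200 bases, so a shorter partial copy of mt-Atp8 would have been missed.

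Stretches of 90 bases show how close the copies are, read on the strand of the mitochondrial gene, with capitals at positions where the copies differ from the mitochondrial gene. Bases 445 to 534 of mt-Co2 (M:7457-7546) are given with the chromosome 1 copy, which has 0 differences, and the chromosome 2 copy, which has 7.
mt-Co2: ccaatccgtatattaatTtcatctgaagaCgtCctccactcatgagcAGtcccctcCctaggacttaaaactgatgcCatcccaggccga
Gm28661: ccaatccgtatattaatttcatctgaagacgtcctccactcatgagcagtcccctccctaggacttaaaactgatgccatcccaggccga
Gm13341: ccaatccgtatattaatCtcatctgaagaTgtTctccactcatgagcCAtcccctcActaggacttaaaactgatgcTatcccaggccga
Bases 1063 to 1152 of mt-Co1 (M:6390-6479) hold the single mismatch of its chromosome 1 copy and 2 differences of the chromosome 2 copy.
mt-Co1: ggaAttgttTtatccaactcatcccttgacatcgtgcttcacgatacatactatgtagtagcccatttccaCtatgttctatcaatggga
Gm29216: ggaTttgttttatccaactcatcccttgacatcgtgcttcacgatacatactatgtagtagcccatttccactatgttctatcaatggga
Gm13340: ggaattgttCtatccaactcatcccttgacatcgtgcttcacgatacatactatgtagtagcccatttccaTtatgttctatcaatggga
Bases 101 to 190 of mt-Atp6 (M:8027-8116) have 0 differences in the copy.
mt-Atp6: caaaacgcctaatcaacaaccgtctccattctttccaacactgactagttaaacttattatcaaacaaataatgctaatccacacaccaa
Gm10925: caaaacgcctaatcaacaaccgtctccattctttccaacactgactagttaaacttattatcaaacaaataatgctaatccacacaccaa

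Fragments from identical sequences cannot be told apart, and in this table they stand under the copies' names. Gm28661, with the sequence of mt-Co2, the subunit that takes electrons from cytochrome c, was at 10788, 12472, 12219, 11194 and 11719 FPKM in WT and at 12214, 9462, 12728, 10980.0 and 10667 FPKM in KO. Gm28437, with that of mt-Co3, averaged 13345 ± 1278 FPKM in WT and 12995 ± 939 FPKM in KO. Gm10925, with that of mt-Atp6, the proton channel subunit of complex V, was at 26028, 33982, 30195, 25261 and 28201 FPKM in WT and at 29331, 21459, 27652, 24831 and 26897 FPKM in KO. WT replicate 2 held the highest value of all 10 for Gm10925 and Gm28437, and KO replicate 2 the lowest for all 3 of these copies, as it did for mt-Cytb and mt-Co1. The log2 fold changes were -0.06 for Gm28661, -0.04 for Gm28437 and -0.14 for Gm10925 (limma adjusted p = 0.802, 0.891 and 0.616). Gm29216 was at 16957 ± 1028 and 18051 ± 1002 FPKM (log2 fold change 0.09, limma adjusted p = 0.629), while the diverged Gm13340 and Gm13341 averaged 0.176 and 0.524 FPKM. These values do not show whether the nuclear copies themselves were transcribed.

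**Figure D4:**
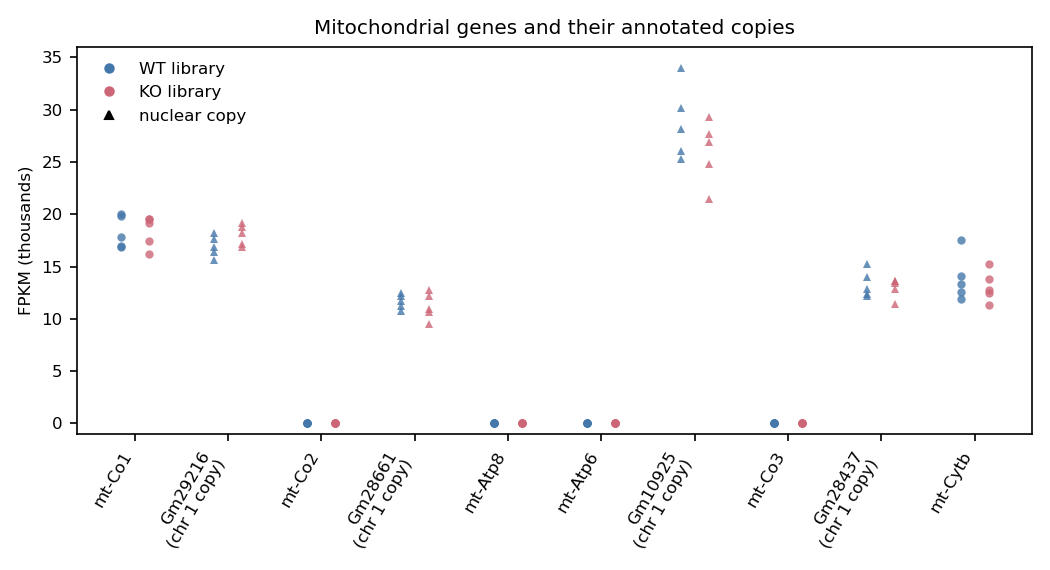
FPKM (axis divided by 1000) of the 6 mitochondrial genes (circles) and of the chromosome 1 copies of 4 of them (triangles), in map order with each copy beside its gene, in 5 WT (blue) and 5 KO (red) libraries. mt-Co2, mt-Atp8, mt-Atp6 and mt-Co3 lie at or near 0, and the copies of mt-Co2, mt-Atp6 and mt-Co3 between 9462 and 33982 FPKM.

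Copies of the nuclear genes carried little FPKM of their own. Of the 49 nuclear genes, 13 had 1 or more copies elsewhere in the annotation with at least 95% identity over at least 200 bases, 30 copies in all, with 2 annotated loci that overlap the gene itself not counted. The table listed 28 of these, 15 of them at 0 in every library. The highest, Gm10039 of Atp5g1, averaged 5.78 FPKM, and no listed copy reached more than 5.51% of the mean of its gene. How fragments shared by a nuclear gene and its copy were assigned was not tested.

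Complex V is a rotary machine with a catalytic head in the matrix, a membrane ring of c subunits that turns as protons pass, and a stalk that holds the head still. Atp5b, the catalytic beta subunit, was the most abundant nuclear gene here, at 1019.8, 1046, 1035, 996 and 1091 FPKM in WT and 1018, 1180.0, 974, 1076 and 1119 FPKM in KO. Its lowest and highest values were both in KO libraries (log2 fold change 0.05, 95% CI -0.09 to 0.18, limma adjusted p = 0.819). Atp5a1, the alpha subunit that alternates with beta in equal number around the head, was at 418 ± 12.3 and 419.6 ± 25.3 FPKM. The Atp5b to Atp5a1 ratio was 2.48 ± 0.0316 in WT and 2.56 ± 0.167 in KO, and the KO libraries ran from 2.32 to 2.79 while the WT libraries kept to 2.45 to 2.52. The rotor subunits Atp5c1 (gamma) and Atp5d (delta) were at 217 and 301 FPKM in WT and 212 and 309 FPKM in KO. Atp5j, coupling factor 6 of the stalk, was at 164 ± 6.19 and 157 ± 5.53 FPKM (log2 fold change -0.06, limma adjusted p = 0.709).

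The c ring is encoded by 3 genes whose mature proteins are the same. Atp5g1 averaged 322 ± 22.6 FPKM in WT and 341.5 ± 26.1 FPKM in KO (log2 fold change 0.08, limma adjusted p = 0.690), and Atp5g3 was at 411 ± 35.3 and 392 ± 32.5 FPKM (log2 fold change -0.07, limma adjusted p = 0.764). Atp5g2 was at 127 and 131 FPKM. As a share of the 3 together, Atp5g1 was 37.9, 38.8, 38.2, 36.6 and 35.8% in WT replicates 1 to 5 and 38.6, 40.2, 39.1, 39.98 and 39.5% in KO replicates 1 to 5. Of the KO libraries 4 lay above every WT library, and KO replicate 1 lay below WT replicate 2. Atp5g3 held 47.7 ± 1.60% and 45.3 ± 1.71%, and the sum of the 3 was 861 ± 57.3 FPKM in WT and 865 ± 62.6 FPKM in KO.

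At the lower end, Atp5s was the gene of lowest p among all 46. It was at 4.92, 5.27, 5.41, 4.95 and 5.11 FPKM in WT, within 0.5 FPKM of each other, and at 3.84, 3.23, 5.27, 5.08 and 4.68 FPKM in KO. KO replicates 3 and 4 were inside the WT range and the other 3 below it (log2 fold change -0.21, 95% CI -0.47 to 0.04, unadjusted p = 0.0913, limma adjusted p = 0.493). Atp5sl had means of 27.7 and 27.6 FPKM. The 17 genes of complex V tested had a median log2 fold change of 0.01, with 10 above 0 and 7 below. By comparison, complex I was tested through 43 genes with mt-Nd or Nduf symbols, Ndufa4 of complex IV among them. Of these 0 passed the adjusted threshold and 2 had an unadjusted p under 0.05, beside 11.8% of all genes tested. Both were mitochondrial. In 2 of the 7 mitochondrial genes the KO and WT ranges parted, beside 2.79% of all genes. The lowest adjusted p of the 7 was 0.0706 (limma). The 36 nuclear genes had a median log2 fold change of 0.02. The 7 mitochondrial genes had one of -0.18, each below 0, as were 8070 of the 12395 genes tested. The values for mt-Co1 and mt-Cytb were 0.01 and -0.08. The difference between complex I and the others was not tested.

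The spread between libraries was shared by many of these genes. Over the 39 nuclear genes with at least 50 FPKM, KO means were 95.4% to 106% of WT means, and the median coefficient of variation was 5.34% in WT and 7.58% in KO. The SD of the FPKM values was the higher in KO for 27 of the 39. KO replicate 5 held the highest of the 10 values for 15 of the 39 and KO replicate 3 the lowest for 18, with median deviations from the WT mean of 0.11 and -0.08 (log2). WT replicate 1 followed at -0.07. Such counts were not made over all genes, so they are not shown to be particular to these genes. KO replicate 3 is also the library with pancreas transcripts, and with it left out 1 gene, Atp5s, had an unadjusted p under 0.05, with an adjusted p of 0.383 (limma). All 49 nuclear genes together held 1.28 ± 0.0281% of all FPKM in WT and 1.30 ± 0.0627% in KO.

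**Figure D5:**
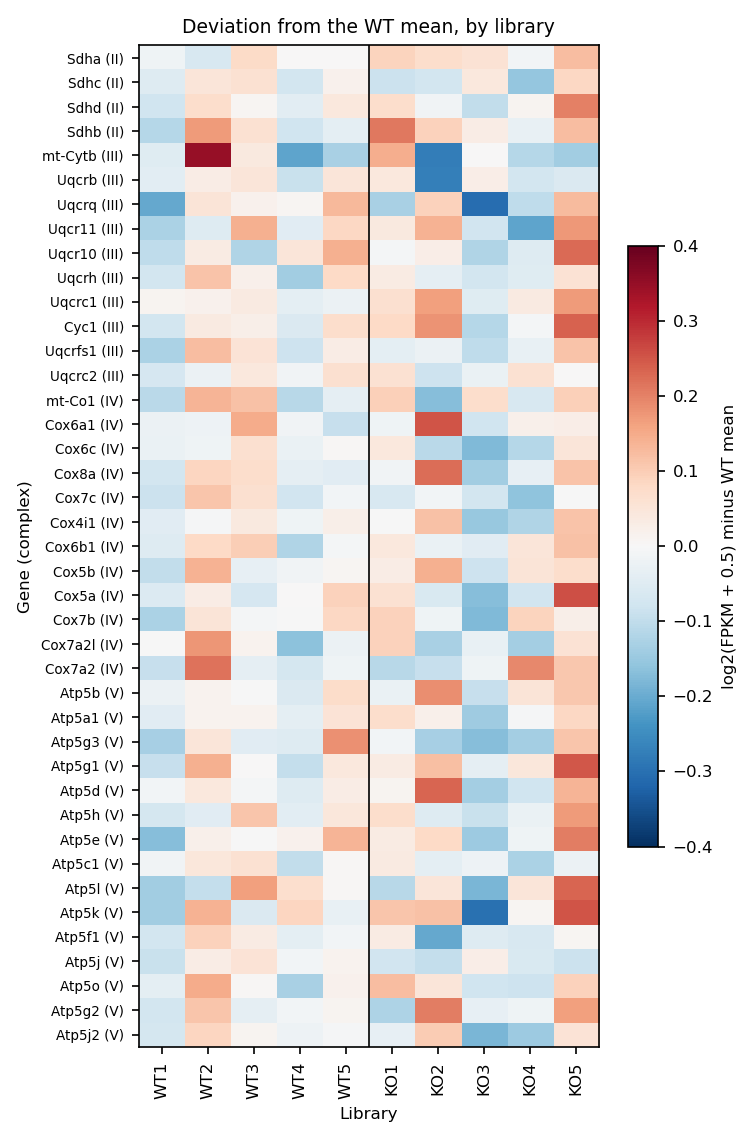
Deviation of log2(FPKM + 0.5) from the WT mean for each gene with at least 50 FPKM (39 nuclear, 2 mitochondrial) in 10 libraries, red above and blue below. The KO replicate 5 column is mostly red and the KO replicate 3 column mostly blue, while mt-Cytb and mt-Co1 are lowest in KO replicate 2.

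Genes that build, feed or regulate these complexes were read from lists, and in none of the 8 lists did a gene pass the adjusted threshold. The median log2 fold changes of the lists ran from -0.13, for the transcription factors, to 0.004, for the routes into ubiquinone, beside -0.05 over all genes. Of 4 subunits or partners of complexes IV and V outside the symbol rule, all had log2 fold changes below 0. That was the direction of 8070 of the 12395 genes tested. The lowest p were those of the ATP synthase subunits 2010107E04Rik (131 to 121 FPKM, limma adjusted p = 0.572) and Usmg5 (149.7 to 141 FPKM, limma adjusted p = 0.764). The other 2, Ndufa4 of complex IV and the ATP synthase inhibitor Atpif1, had log2 fold changes of -0.03 and -0.01.

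Assembly factors numbered 4 for complex II, 6 for complex III, 23 for complex IV and 7 for complex V and cristae. Of them 1, 1, 3 and 0 had an unadjusted p under 0.05, a share near the 11.8% of all genes tested. The KO and WT ranges parted for 1, 0, 2 and 0 of them, beside 2.79% of all genes tested. Sdhaf2, which adds the flavin to Sdha, was at 8.51, 7.91, 9.42, 8.00 and 8.85 FPKM in WT and 7.54, 7.76, 7.53, 7.77 and 7.40 FPKM in KO, without overlap (limma adjusted p = 0.403), and Sdhaf3 had means of 1.34 and 1.19 FPKM. Ttc19, which keeps complex III clear of Rieske fragments, had means of 6.30 ± 0.875 and 5.12 ± 0.341 FPKM (limma adjusted p = 0.277), and Bcs1l, which inserts the Rieske protein, 5.91 and 6.51 FPKM. Cox20, the chaperone of mt-Co2, was at 52.5, 65.7, 57.4, 54.5 and 64.0 FPKM in WT and 48.5, 49.2, 48.7, 50.2 and 47.9 FPKM in KO. Every KO library was below every WT library for Cox20, yet the limma adjusted p was 0.175 (log2 fold change -0.26, 95% CI -0.41 to -0.11). Coa5, another complex IV assembly factor, had means of 24.8 ± 1.13 and 21.5 ± 0.676 FPKM, also without overlap (limma adjusted p = 0.195). Atpaf2, the chaperone of Atp5a1, and the cristae GTPase Opa1 had means of 11.7 and 29.3 FPKM in WT and 10.4 and 27.1 FPKM in KO.

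Electrons also reach ubiquinone without complexes I and II. Of 11 genes for these routes 2 had an unadjusted p under 0.05, which 11.8% of all genes tested had. In 1 of the 11 the KO and WT ranges parted, beside 2.79% of all genes tested. Dmgdh, the mitochondrial dimethylglycine dehydrogenase of choline breakdown, was at 174, 219, 232, 219 and 201 FPKM in WT and 278, 263, 264, 248 and 242 FPKM in KO, with every KO library above every WT library (log2 fold change 0.31, 95% CI 0.14 to 0.49, limma adjusted p = 0.155). Gpd2, the mitochondrial glycerol-3-phosphate dehydrogenase, had means of 11.7 ± 2.83 and 8.77 ± 0.830 FPKM (limma adjusted p = 0.414). Of 11 genes of ubiquinone synthesis 2 had an unadjusted p under 0.05 and parted without overlap, beside 11.8% and 2.79% of all genes tested. They were the methyltransferases Coq3, with means of 9.62 ± 0.352 and 7.92 ± 0.277 FPKM, and Coq5, with 12.9 ± 0.246 and 11.1 ± 0.623 FPKM (limma adjusted p = 0.140 and 0.205).

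Of 12 transcription factors and coactivators of nuclear subunits and mitochondrial transcription, 5 had an unadjusted p under 0.05, beside 11.8% of all genes. In 1 of the 12 the KO and WT ranges parted, beside 2.79% of all genes. Log2 fold changes were below 0 for 7 of the 12, as for 8070 of the 12395 genes tested. Tfb2m, which opens mitochondrial promoters, was at 15.5, 15.9, 15.6, 15.7 and 14.8 FPKM in WT and 14.3, 13.2, 12.6, 12.4 and 12.7 FPKM in KO, without overlap (log2 fold change -0.24, 95% CI -0.37 to -0.11, limma adjusted p = 0.157). Gabpa, the DNA-binding part of GABP, had means of 12.8 ± 0.932 and 10.7 ± 0.981 FPKM (limma adjusted p = 0.233).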

How the data were processed

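The deposited table gives FPKM, computed by the authors, for 47729 genes in 10 libraries, 5 KO and 5 WT, and 2 unnamed empty columns were left aside. The tools named are STAR, DESeq, DESeq2, RSEM and R 4.0.2, with build mm10, per the submitters' processing notes, which give no roles. FPKM depends on the library total and on how shared sequences were assigned.

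Values were transformed as log2(FPKM + 0.5). The 12395 genes averaging 0.5 FPKM or more entered limma 3.58.1, run under R 4.3.3 (trend, robust prior, two-sided, Benjamini-Hochberg over all genes tested, threshold 0.05), and fold changes on this scale understate those of low genes. Depth was fitted so that low values of genes with 1 transcript of 350 to 1000 bases became whole fragments, which 93.4% to 96.4% of 454 to 518 values did within 0.1. On data simulated for KO against WT over 12395 genes, recovery was 8.4% at 1.2-fold, 64% at 1.5-fold and 89.2% at 2-fold, and 6.1% of calls were false.

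The members and lists were chosen with earlier results of these data known. Genes named are the mitochondrial members, core subunits, isoform groups, the 3 of lowest p and the highest and lowest in each complex, and the 2 of lowest p in each list. Copies were found with BLAST 2.17.0 in GENCODE M21 (GRCm38). Promoters are from RefSeq (GRCm38.p6). Figures used matplotlib 3.10.9 in Python 3.11.15. Alternatives were other pseudocounts, filters, scalings, limma settings, a replicate block and each library left out. The correlation of same-numbered KO and WT samples was above 0.1 for replicates 1 and 5 only, so the numbers were not taken to pair samples.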

Additional observations from a re-analysis of the deposited data

Results flagged for a closer look

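Each group of 5 libraries was examined for a value far from the others. A library stood apart in 2 of 102 groups, where chance alone would give about 5.1. Cox7a2, the widely expressed form of a small complex IV subunit, was at 74.62 FPKM in WT replicate 2, while the other 4 WT libraries lay between 60.12 and 63.43 FPKM. Atp5j, a stalk subunit of ATP synthase, was at 166.72 FPKM in KO replicate 3 and at 153.03 to 157.0 FPKM in the other 4 KO libraries, although KO replicate 3 was the lowest of all 10 libraries for 18 of the 39 nuclear genes with at least 50 FPKM.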

How the results depend on the processing

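None of the genes of complexes II to V was called at any of 23 other settings, where the lowest limma adjusted p of any was 0.383. The number with intervals within 1.2-fold ran from 37 to 41, of 45 to 50 tested under the filters. The sign of the log2 fold change was less stable: 31 of the 46 changed sign at 1 or more settings and 15 did not. Those above 0 numbered 26, against 34 with median-of-ratios scaling, 19 with rescaling without mitochondrial transcripts, and 15 (without KO replicate 5) to 28 with a library left out. Median-of-ratios scaling moved Sdha to 0.12 and Atp5j to -0.006. The number of all genes called was 8, and became 5 with no filter, 5 with no trend or robust prior, 18 with array weights and 30 at an adjusted p of 0.1. With the replicate number as a block it was 5, with 0 from complexes II to V; WT samples correlated best with their own number for replicates 1 and 5 only, and same-number correlations ran from -0.02 to 0.20. With a library left out it ran from 4 (without WT replicate 1, WT replicate 5 or KO replicate 2) to 18 (without WT replicate 2), with 5 without WT replicate 3, WT replicate 4, KO replicate 1 or KO replicate 3. Of 8 genes called 4 were higher in KO, and of 6 with rescaling without mitochondrial transcripts 2 were. The causes were not tested. In the simulated comparison, which drew genes from all levels, 8.4% of 1.2-fold and 64% of 1.5-fold changes were recovered. Differences of that size could be missed among the genes tested, and recovery was not split by level.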

Other observations

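Library deviations followed base composition in a single library more than in the others. Deviations here are from the mean of all 10 libraries, and GC content is that of the longest coding transcript. Across the 39 nuclear genes with at least 50 FPKM, the 2 had a Pearson correlation of 0.62 in KO replicate 2. Across 12362 genes tested it was 0.43 in that library. The corresponding values for the 39 genes were 0.25 in KO replicate 5 and between -0.26 and -0.02 in the other 8 libraries. These are descriptions across genes, which are not independent replicates. KO replicate 2 was also the lowest library for mt-Cytb, mt-Co1 and the chromosome 1 copies of mt-Co2, mt-Atp6 and mt-Co3, and its part in those values was not tested.

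Ppargc1a, which encodes a coactivator of mitochondrial biogenesis, was among the 5 regulators with an unadjusted p under 0.05 and was picked out after its values were seen. It was at 4.13, 2.80, 3.68, 4.09 and 4.11 FPKM in WT and at 5.61, 4.12, 5.99, 7.37 and 3.90 FPKM in KO, with overlap (log2 fold change 0.45, 95% CI 0.10 to 0.79, limma adjusted p = 0.285). Its sign was opposite to that of Tfb2m and Gabpa.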
